A study of Mus musculus with 8 samples.

Results

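Galectins are small lectins that bind beta-galactosides, the galactose-containing ends of sugar chains on glycoproteins and glycolipids. The array probes of 6 mouse galectin genes are described here: Lgals1, Lgals2, Lgals3, Lgals4, Lgals8 and Lgals9. A probe set, the group of oligonucleotides that reads a transcript, was taken when the platform's annotation gave it exactly one of these symbols. This selected 9 of the 45101 probe sets on the array, for 6 of its 18193 genes with a probe set of their own. The genes were chosen with the same 8 arrays in view, so their signals and stage differences are given as a description, and no p-value is given for them.

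Whole mouse embryos of 2 stages were hybridised to 1-colour oligonucleotide arrays, which read messenger RNA. The tested stage was the blastocyst (day 4.5 of development, 120 h after the females received chorionic gonadotropin to time ovulation). It was set against the 8-cell embryo (day 2.5, 66 h), with 4 arrays for each stage. All embryos were wild-type, came from B6D2F1 females mated to B6D2F1 males, and were collected as 1-cell zygotes and grown in KSOM medium under low oxygen. The labels do not state whether arrays of the same stage hold independent embryo collections, so the errors measure the spread between these arrays, which may be technical. An array of whole embryos cannot separate fewer cells of a kind from less RNA in each of them.

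A galectin is recognised by its carbohydrate-recognition domain. Galectin-1 and galectin-2 have a single such domain and work as dimers, galectin-3 joins a single domain to a flexible tail that lets it form larger assemblies, and galectin-4, galectin-8 and galectin-9 carry a pair of different domains in one chain. Outside the cell they crosslink glycoproteins into lattices and link cells to laminin and fibronectin; inside it, galectin-3 and galectin-8 gather on damaged endosomes and lysosomes. In mouse development galectin-1 is known from earlier work as a product of the trophectoderm, the outer epithelium of the blastocyst.

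The promoters of Lgals3 and Lgals4, which were brighter in blastocysts, and of Lgals9, which was dimmer, are shown. They are the promoters found here that held an E-box. That of Lgals8, which was also dimmer, held no motif searched and is not shown, nor is that of Lgals2. Each line gives the 250 bases before the gene's start from RefSeq, assembly GRCm38.p6, 5′ to 3′ on the gene's strand, with matches to the E-box (CANNTG, the core bound by helix-loop-helix factors) in capitals. They lie at chr14:47373610-47373859 (plus strand), chr7:28833544-28833793 (plus strand) and chr11:78984925-78985174 (minus strand). The Lgals4 window overlaps the annotated span of the gene, since a start further upstream is also annotated. The same holds for the window of Lgals8, which is not shown.
Lgals3: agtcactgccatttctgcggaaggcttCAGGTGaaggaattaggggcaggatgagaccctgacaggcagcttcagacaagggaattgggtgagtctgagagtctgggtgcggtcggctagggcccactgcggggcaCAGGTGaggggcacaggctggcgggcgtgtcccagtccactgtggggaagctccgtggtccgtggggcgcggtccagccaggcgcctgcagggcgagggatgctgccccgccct
Lgals4: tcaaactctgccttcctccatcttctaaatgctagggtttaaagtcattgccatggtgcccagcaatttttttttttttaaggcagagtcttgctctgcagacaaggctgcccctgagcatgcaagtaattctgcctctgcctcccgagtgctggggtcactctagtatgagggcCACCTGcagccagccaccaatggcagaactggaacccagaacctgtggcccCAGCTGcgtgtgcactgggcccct
Lgals9: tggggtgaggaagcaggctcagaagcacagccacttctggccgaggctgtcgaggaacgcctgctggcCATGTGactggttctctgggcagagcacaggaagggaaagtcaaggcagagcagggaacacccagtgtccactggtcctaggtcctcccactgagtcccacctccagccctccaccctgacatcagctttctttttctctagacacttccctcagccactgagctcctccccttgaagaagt
Promoters were found for 5 of the 6 genes, all but Lgals1. The letters of the AP-2 palindrome (GCCNNNGGC), searched because AP-2 gamma is a factor of the trophectoderm and is named in the title of the series, were in none of the 5 windows on either strand, and 13.73% of 32851 mouse promoter windows of the same length held them. The TEAD core GGAATG was also in none, against 12.64% of all windows. The GATA core AGATAA was in 1, that of Lgals2, which starts 90 bases before the gene's start, against 9.99% of all windows. E-boxes were in 3 of the 5, against 66.22% of all windows, and none overlapped another motif searched. Lgals3 had E-boxes that begin 223 and 114 bases before the start, Lgals4 had them at 75 and 24 bases, and Lgals9 had a single one at 182 bases.

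The galectins with the larger differences were brighter in blastocysts. Lgals1, Lgals3 and Lgals4 were higher there by 278-fold to 326-fold, 9.14-fold and 16.5-fold, while Lgals8 and Lgals9 were lower, by 1.73-fold to 1.74-fold and 2.47-fold. These folds are taken from log2(signal + 16) and are not plain ratios of signal. The ratios of mean signals were 319 and 398 for the Lgals1 probe sets, 9.43 for Lgals3 and 18.8 for Lgals4. Lgals2 did not separate the stages. All 9 probe sets passed a filter on low signals (exceeding their array's 40th percentile on 4 or more of the 8 arrays), and in 7 of them the 4 blastocyst arrays lay entirely above or below the 4 8-cell arrays. By the limma fit over all probe sets with Benjamini-Hochberg adjustment, 4 galectin probe sets were called higher and 3 lower at an adjusted p under 0.05. The background was high: 66.4% of the 28227 probe sets tested were called, 33.6% higher and 32.8% lower, and in 61.2% the stages did not overlap. That was 9483 probe sets higher and 9251 lower on the deposited scale, against 10469 and 6505 with the arrays scaled to their spike-in controls. Since the genes were chosen on this contrast, nothing is read from their count. Each difference below is the blastocyst mean minus the 8-cell mean of log2(signal + 16), followed by its standard error (SE) from that fit, and understates the change of dim probe sets.

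**Figure D1:**
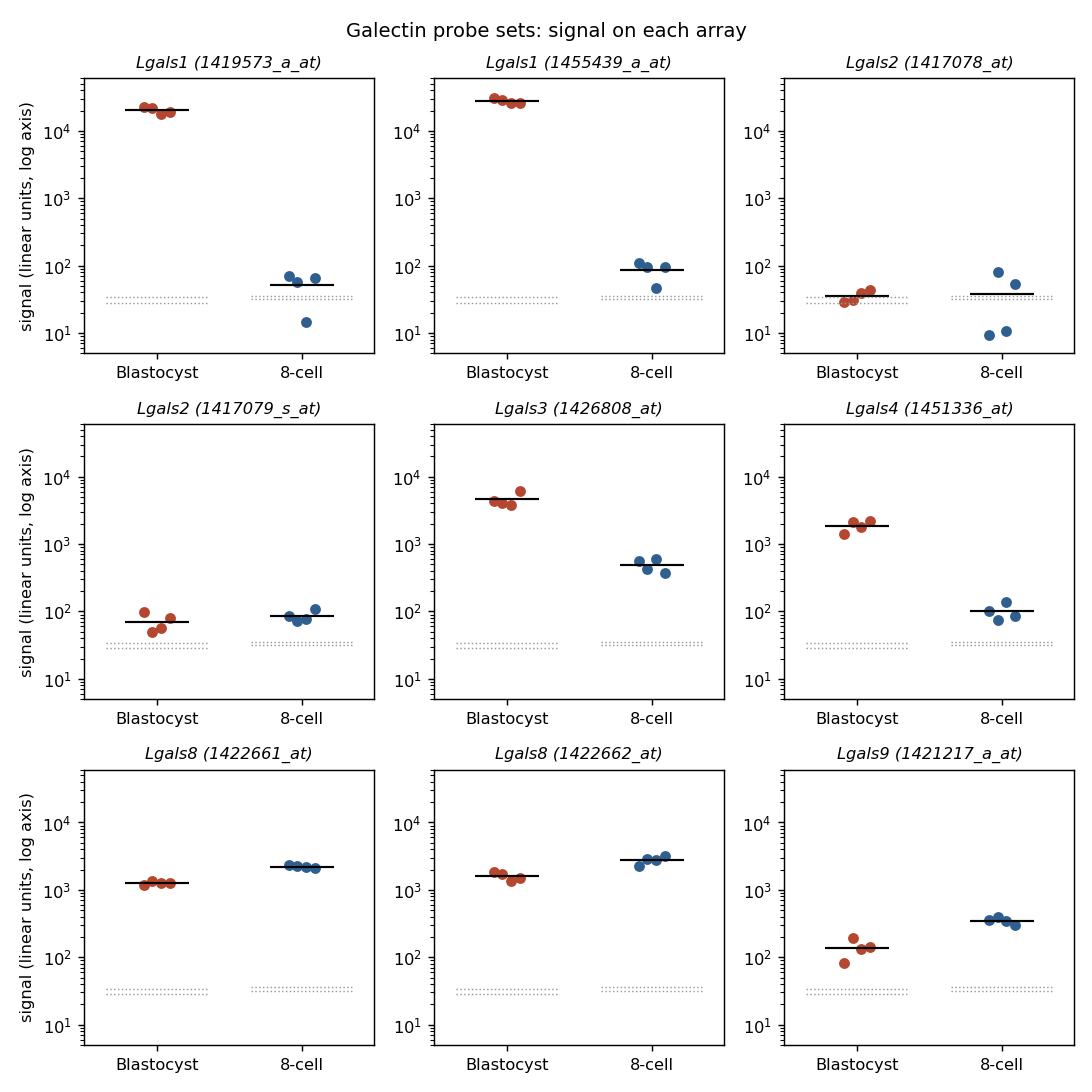
Signal of each galectin probe set on each array (points), with the mean of the 4 arrays of a stage (black line), on a log axis; dotted lines mark the lowest and highest array's 40th percentile. Blastocysts stand left and 8-cell embryos right, and the stages separate for every probe set but those of Lgals2.

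Lgals1, encoding galectin-1, showed the largest difference of the 6 genes. Its probe set 1455439_a_at read 30258, 28656, 26330 and 26074 on the blastocyst arrays, against 111, 96.2, 46.4 and 95.6 on the 8-cell arrays. The stages were far apart, and the lowest 8-cell value was that of replicate 3. Probe set 1419573_a_at read 22978, 21848, 17802 and 19302 in blastocysts, against 69.2, 57.1, 14.4 and 65.3 in 8-cell embryos, where replicate 3 was again the lowest and lay under its array's 40th percentile. The differences were 8.12 (SE 0.22) and 8.35 (SE 0.31). Without 8-cell replicate 3 they were 7.90 and 8.00, and with 64 added in place of 16 they were 7.54 and 7.50.

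In blastocysts the Lgals1 signal stood at the top of the scale. Among 45037 probe sets other than controls, 1455439_a_at was the brightest on blastocyst replicate 3 and the second brightest on the other blastocyst arrays, and 1419573_a_at ranked between 66 and 96. On the 8-cell arrays 1455439_a_at ranked between 16609 and 24374. These ranks place a signal on its array and do not compare amounts of RNA between genes. Whether the brightest spots were saturated was not tested. Both probe sets have IDs that end in _a_at, the platform's mark for probes shared by several transcripts of a gene, and the reference table also lists a pseudogene, Lgals1-ps1, so reads of near-identical copies cannot be told apart.

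Lgals3, the chimeric galectin-3, was above the 40th percentile on all 8 arrays. It read 4315, 4093, 3774 and 6153 in blastocysts, against 553, 419, 594 and 378 in 8-cell embryos. Every blastocyst array exceeded every 8-cell array. The means were 4584 ± 1069 and 486 ± 104 (SD, n = 4 each), a difference of 3.19 (SE 0.20). Blastocyst replicate 4 was the brightest and the other 3 lay close together, and the coefficient of variation was 23.3% in blastocysts and 21.3% in 8-cell embryos.

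Lgals4 encodes galectin-4, a tandem-repeat galectin best known from the epithelium of the gut, where it binds sulfated glycolipids and takes part in apical transport. It read 1424, 2124, 1776 and 2187 in blastocysts, against 101, 75.3, 139.5 and 84.3 in 8-cell embryos. Every blastocyst array exceeded every 8-cell array, of which replicate 3 was the brightest. The means were 1878 ± 352 and 99.95 ± 28.4 (SD, n = 4 each), a difference of 4.04 (SE 0.21).

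Lgals8 encodes galectin-8, which binds integrins outside the cell and marks damaged vesicles inside it. Its probe set 1422661_at read 1184, 1337, 1282 and 1265 in blastocysts, against 2301, 2224, 2213 and 2136 in 8-cell embryos. Probe set 1422662_at read 1865, 1694, 1347 and 1479 in blastocysts, against 2293, 2898, 2786 and 3133 in 8-cell embryos. Neither probe set overlapped between the stages, and the differences were nearly the same, -0.80 (SE 0.12) and -0.79 (SE 0.16). The probe sets differed in spread: the coefficient of variation was 4.98% in blastocysts and 3.05% in 8-cell embryos for 1422661_at, and 14.4% and 12.7% for 1422662_at. With the arrays scaled to their bacterial hybridisation spike-ins, the differences were -0.53 for each, and 1422662_at was no longer called.

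Lgals9, encoding the tandem-repeat galectin-9, a regulator of immune cells, was dimmer in blastocysts. It read 80.9, 190, 131 and 143 in blastocysts, against 360, 390, 343 and 303 in 8-cell embryos. The ranges did not overlap, but blastocysts varied more among themselves, with a coefficient of variation of 32.9% against 10.4% in 8-cell embryos. The difference was -1.31 (SE 0.22). This probe set also ends in _a_at.

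Lgals2, encoding galectin-2, a close relative of galectin-1, was dim at both stages. Probe set 1417078_at read 29.3, 30.4, 39.7 and 43.3 in blastocysts, against 9.3, 80.4, 10.7 and 53.5 in 8-cell embryos, so the 8-cell range enclosed the blastocyst range. Probe set 1417079_s_at read 97.1, 49.2, 56.9 and 78.9 in blastocysts, against 85.9, 72.5, 77.5 and 108.6 in 8-cell embryos. The ranges overlapped on both probe sets. The differences were 0.15 (SE 0.41) and -0.26 (SE 0.20), opposite in sign and neither called. The ID ending in _s_at marks probes that may also bind transcripts of other genes.

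**Figure D2:**
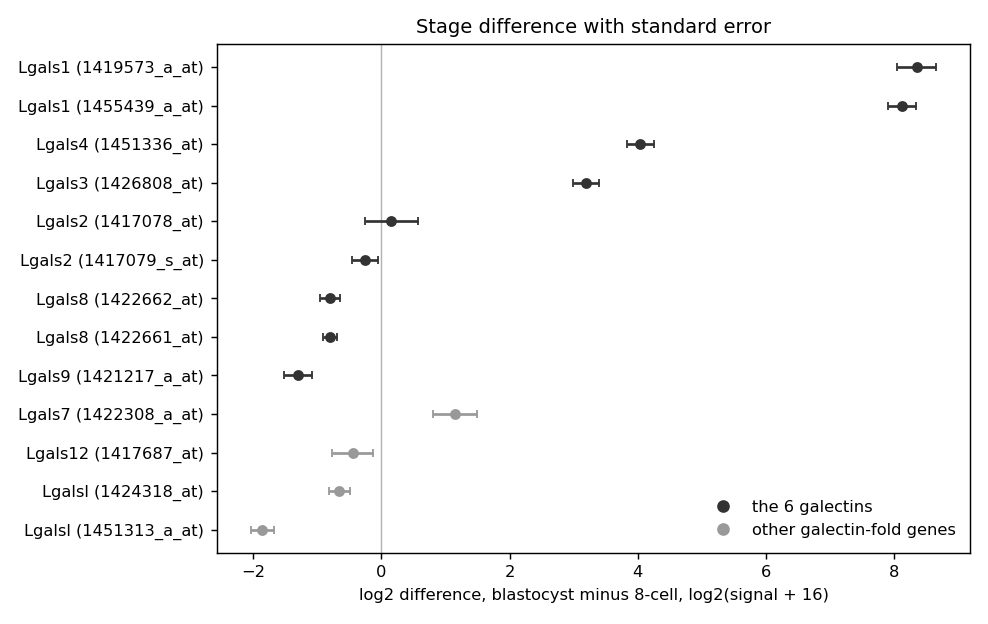
Difference in log2(signal + 16), blastocyst minus 8-cell, with the limma standard error (bars), for the 9 probe sets of the 6 galectins (dark) and the probe sets past the filter of other galectin-fold genes (grey). Lgals1 lies above 8, Lgals4 and Lgals3 between 3 and 5, and Lgals8 and Lgals9 below 0.

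The stages also differed in a measure of RNA quality, the excess of 3′ over 5′ signal of control transcripts. It cannot tell the state of the RNA from its amplification. The signal at the 3′ end of the Actb control transcript exceeded that at the 5′ end by 0.82 ± 0.11 log2 units in blastocysts and 2.42 ± 0.19 in 8-cell embryos, and for Gapdh by 1.36 ± 0.11 and 2.32 ± 0.26 (SD, n = 4 each). By an exact permutation test, two-sided, both gave p = 0.0286, also after adjustment over the 2 measures, which is the smallest value that 70 assignments allow. Their part in the galectin differences was not tested. The array medians lay between 47.1 and 56.0 in blastocysts and between 50.8 and 56 in 8-cell embryos. Arrays correlated at 0.982 to 0.988 among blastocysts, at 0.977 to 0.981 among 8-cell embryos and at 0.752 to 0.78 between the stages. All values of the 8-cell columns have 1 decimal, which holds for at most 0.375% of any blastocyst column, so a difference in handling between the stages cannot be told apart from the stage.

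Marker genes of the blastocyst lineages did not all run one way. Over all 13274 genes tested, 37.5% were called higher and 34.2% lower. Of 10 trophectoderm markers, 10 were higher in blastocysts, and their summed signal was 86607 to 97520 there against 3258 to 3857 in 8-cell embryos. Of 10 primitive endoderm markers 8 were higher and 2, Gata4 and Gata6, lower, with sums of 38698 to 51161 against 10839 to 14241. Among the higher markers, Elf5, Sox17 and Lama1 were under the 40th percentile on every 8-cell array and passed the filter through the blastocyst arrays alone. Of 8 epiblast markers 4 were higher and 3, Pou5f1, Klf4 and Esrrb, lower, and their sums overlapped, at 15650 to 21669 in blastocysts and 18514 to 21437 in 8-cell embryos. Because macrophages and fibroblasts also make galectins, their markers were read beside them. The 9 leukocyte markers on the array summed to 747 to 1268 in blastocysts and 735 to 968 in 8-cell embryos, with Spi1 the brightest at 432 ± 227 and 430 ± 56.3 (SD, n = 4 each). Of these, 5 were tested and only Lyz2 was called higher (46.1 in blastocysts and 22.4 in 8-cell embryos). Cd14 did not pass the filter but did not overlap between the stages (42.5 and 10), and 2 of the 9 were under the 40th percentile on every array. The pan-leukocyte marker Ptprc averaged 15.0 in blastocysts and 3.35 in 8-cell embryos. The 8 fibroblast markers summed to 259 to 308 and 146 to 253, with Thy1 the brightest at 111 ± 11.5 in blastocysts and 11.9 ± 7.52 in 8-cell embryos. Of 3 tested, Thy1 and Pdgfrb (46.7 and 11.4) were called higher. Both were under the 40th percentile on every 8-cell array and passed the filter through the blastocyst arrays alone, so nothing is read from these calls. The collagen markers were dimmer in blastocysts on average. Col1a1 averaged 18.7 and 21.4, Col1a2 44.0 and 66.5 (not called) and Col3a1 9.18 and 22.8, the last without overlap between the stages. Dcn was also dimmer there (8.95 and 26.8), while Lum (22.5 and 20.15) and Postn (20.6 and 9.95) were brighter. Col3a1 and Postn were under the 40th percentile on every array. The 7 cumulus and granulosa markers summed to 2927 to 3858 and 8188 to 9673, of which Nr5a2, which the embryo itself expresses, made up most (3326 ± 460 and 8490 ± 671). Of 4 tested, Nr5a2 and Foxl2 (121 ± 25.8 and 174 ± 34.8) were called lower. Inha (55.1 and 39.0) and Fshr (38.6 and 30.35) were not called, and Amh, which did not pass the filter, averaged 8.05 and 8.50. Foxl2 was above the 40th percentile on every array. The 3 red blood cell markers summed to 95.9 to 189 and 127 to 358, with Hba-a2 the brightest (101 ± 35.8 and 223 ± 119). The summed fibroblast signal did not overlap between the stages, though its markers ran in both directions, and its part in the galectin differences was not tested.

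The other galectin-fold genes had low or moderate signals. Of 5 listed genes 4 had a probe set with a single symbol, and 3 passed the filter in the fit over 13274 genes (1 probe set per gene), where 71.7% were called, 37.5% higher and 34.2% lower, and where the stages did not overlap in 66.8%. Lgals7, known from stratified epithelia, read 101, 152, 68.1 and 67.6 in blastocysts, against 13.8, 56.2, 20.6 and 57.7 in 8-cell embryos, and was higher by 1.14 (SE 0.35, limma adjusted p = 0.0138). The value was 0.67 with 64 added in place of 16. Lgalsl, a galectin-like gene whose product is not known to bind sugars, was lower by 0.66 log2 units (-0.66, SE 0.16, adjusted p = 0.0037), with 954 ± 125 in blastocysts and 1518 ± 248 in 8-cell embryos (SD, n = 4 each). Its call was lost with spike-in scaling (-0.39, adjusted p = 0.136). Its probe set 1451313_a_at read 441 ± 99.9 and 1616 ± 163, a difference of -1.86, so the size of the Lgalsl difference depends on the probe set. Lgals12, of adipose tissue, differed by -0.45 (SE 0.32, adjusted p = 0.235), and Grifin, of the lens, did not pass the filter. The count was 1 higher (0 without probe sets marked as shared, since the only Lgals7 probe set is one) and 1 lower, with a median difference of -0.45 against 0.02 over all genes.

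Enzymes that build the sugar chains galectins bind were read in 4 lists. In 3 of these more genes were called higher than lower in blastocysts, and in the glycolipid list the counts were equal. Over all genes 37.5% were called higher and 34.2% lower. The lists were chosen with earlier results of these data known, so p-values of their genes are a description and give no support. The preferred ligand, poly-N-acetyllactosamine, is laid down on branched N-glycans. Of 17 tested genes of branching and chain extension 10 were higher, 4 lower and 3 not called, with a median of 1.61 against 0.02 over all genes. The higher count lay between 7 and 11 over the alternatives. The lower count was 2 with spike-in scaling and 6 with quantile normalization. The Golgi mannosidase gene Man2a1, which trims N-glycans before branching, was at 1255 in blastocysts and 91.3 in 8-cell embryos (3.59, SE 0.17, adjusted p = 1.27e-07). The galactosyltransferase gene B4galt4 rose by 2.44 (SE 0.13), a size that depends on the added constant (4.46 with 1 added and 1.18 with 64). It was under the 40th percentile on every 8-cell array and passed the filter through the blastocyst arrays alone, so no p-value is given. The same held for B4galt2, which is also in the count of higher genes. B3gnt8, an enzyme of chain extension, fell by 2.49 (SE 0.28, adjusted p = 3.02e-05), with 24.1 in blastocysts and 209 in 8-cell embryos (-3.19 with 1 added and -1.60 with 64).

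O-glycan core enzymes followed: of 11 in the fit 7 were higher and 2 lower (1 with spike-in scaling), and 2 were not called (median 1.03). C1galt1, the synthase of the core 1 O-glycan, was at 1470 in blastocysts and 109 in 8-cell embryos (3.57, SE 0.12, adjusted p = 1.89e-08, or 2.67 when its probe sets were averaged). Galnt1, which starts O-glycans, rose by 2.34 (SE 0.14), or by 1.10 when its probe sets were averaged. C1galt1c1, the chaperone of the core 1 synthase, rose by 1.80 (SE 0.21, adjusted p = 3.10e-05), but with the mean of its probe sets it was not called (0.30, adjusted p = 0.141). Of 14 genes of sialylation and fucosylation, 9 were higher (6 to 9 over the alternatives), 2 lower (1 to 3) and 3 not called (median 0.90). The lower count was 1 with the filter at the 60th percentile. Fut4, counted as lower, was under the 40th percentile on every blastocyst array and passed the filter through the 8-cell arrays alone. The carrier of the sialic acid donor into the Golgi, Slc35a1, rose by 2.94 (SE 0.19), the core fucosyltransferase gene Fut8 by 2.87 (SE 0.19) and the sialyltransferase gene St3gal6 by 2.81 (SE 0.27), with adjusted p of 9.03e-06 or less. When probe sets were averaged Fut8 gave 0.87 and St3gal6 1.63. Glycolipid enzymes were split, with 4 higher, 4 lower and 1 not called of 9 tested (median -0.07). Ugt8a, counted as lower, was under the 40th percentile on every blastocyst array. B3gnt5, the first enzyme of lacto-series glycolipids, was at 9104 in blastocysts and 21.5 in 8-cell embryos (7.95, SE 0.25). It was under the 40th percentile on every 8-cell array, and its difference lay between 5.35, when its probe sets were averaged, and 8.82, with 1 added. B3galnt1 rose by 4.25 (SE 0.17, or by 3.31 with 64 added) and B4galt5, a lactosylceramide synthase gene, by 3.08 (SE 0.18, or by 2.40 without probe sets marked as shared).

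**Figure D3:**
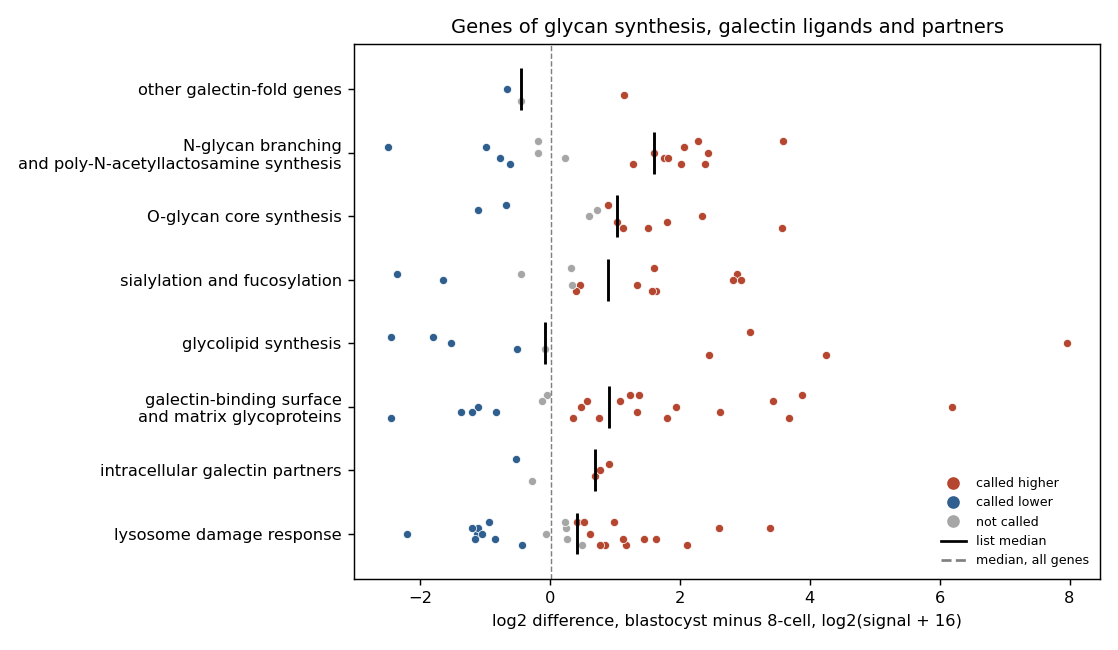
Difference in log2(signal + 16), blastocyst minus 8-cell, of each tested gene (points) in 8 lists of galectin-related genes; colours mark genes called higher, called lower or not called, black lines the list medians and the dashed line the median of all 13274 genes. The N-glycan list has the highest median, 1.61, and B3gnt5 stands alone near 8.

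Of 22 tested glycoproteins that galectins are known to bind, 15 were higher (11 to 15 over the alternatives), 5 lower (3 to 6) and 2 not called (median 0.91). The shares over all genes were 37.5% called higher and 34.2% lower. The basement membrane chain genes Lama1 and Lamc1 rose by 6.19 (SE 0.19) and 3.88 (SE 0.21). The fibronectin gene Fn1 rose by 3.68 (SE 0.14, or by 2.40 when its probe sets were averaged). For Lamc1 and Fn1 the adjusted p was 2.72e-07 or less. Lama1 gave 5.09 with 64 added and 6.85 with 1, and Lamc1 gave 3.27 when its probe sets were averaged. Lama1 was at 3045 in blastocysts and 25.0 in 8-cell embryos, where it was under the 40th percentile on each array, and it is also one of the primitive endoderm markers. Muc1, also counted as higher (67.1 in blastocysts and 5.3 in 8-cell embryos), was likewise under the 40th percentile on each 8-cell array. Lgals3bp, whose product is a secreted ligand of galectin-3, did not pass the filter and read 36.2 ± 10.5 in blastocysts and 25.0 ± 8.69 in 8-cell embryos (SD, n = 4 each), with overlapping ranges.

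Inside the cell, 5 listed partners of galectin-1 or galectin-3 were tested, where over all genes 37.5% were called higher and 34.2% lower. Of the 5, 3 were higher, 1 lower and 1 not called (median 0.69). The higher count was 1 without probe sets marked as shared, and the lower count was 0 with spike-in scaling and 2 when probe sets were averaged. Pdcd6ip, encoding the membrane repair factor ALIX, rose by 0.90 (SE 0.14), or 1.93 without probe sets marked as shared. The transcription factor gene Gtf2i differed by 0.78 (SE 0.11) where its brightest probe set was read, but by -0.59 (adjusted p = 0.00595) with the mean of its probe sets, so its direction depends on that choice. The catenin gene Ctnnb1 rose by 0.69 (SE 0.12). Sufu, a repressor of hedgehog signalling, differed by -0.53 (SE 0.13), by 0.04 with the mean of its probe sets and by -0.28 with spike-in scaling (adjusted p = 0.284). Bcl2 was not called (-0.27, SE 0.44, adjusted p = 0.601), except with the mean of its probe sets (-0.49, adjusted p = 0.0209).

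Genes of the response to lysosome damage, in which galectin-3 and galectin-8 act, showed no single direction. Of 27 tested genes 13 were higher, 9 lower and 5 not called (median 0.41). The Rag GTPase gene Rraga rose by 3.38 (SE 0.17) and Lamtor2, a subunit of the lysosomal complex that holds the Rag proteins, by 2.60 (SE 0.12, or by 1.68 when its probe sets were averaged). Map1lc3a, an autophagosome coat protein gene, fell by 2.20 (SE 0.13, -2.80 without probe sets marked as shared), with 5043 in blastocysts and 23397 in 8-cell embryos. Over all 8 lists 108 of 130 genes were tested, of which 62 were higher and 28 lower. The shares over all genes were 37.5% called higher and 34.2% lower, and nothing is read from the list counts.

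The genes next to the galectins on the chromosome were read as a positional check, chosen by place alone after the galectin values had been seen. Taking 2 protein-coding genes on each side by order of start, 23 genes were found, 21 were tested, and 7 were higher, 10 lower (6 with spike-in scaling) and 4 not called, where over all genes 71.7% were called, 37.5% higher and 34.2% lower. Lgals2 and Lgals1 lie near each other with 3 protein-coding genes between them. Of these Sh3bp1 differed by 2.66 (SE 0.30), Pdxp by 1.58 (SE 0.14) and Gga1 by 0.06 (SE 0.12), beside 8.12 for Lgals1 and -0.26 for the brighter probe set of Lgals2. On the other side of Lgals1, Nol12 differed by -0.47 (SE 0.12, or -0.20 and not called with spike-in scaling, and -1.11 when its probe sets were averaged) and Triobp by 1.48 (SE 0.15).

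Near Lgals4, the enoyl-CoA isomerase gene Ech1 rose by 6.56 (SE 0.34; 7.36 with 1 added and 5.42 with 64), with 3893 ± 444 in blastocysts and 30.5 ± 26.3 in 8-cell embryos (SD, n = 4 each), while Hnrnpl differed by -0.11 (SE 0.13) and Capn12 by -0.91 (SE 0.17). Lgals7 is the next gene after Lgals4. Beside Lgals3, the mitotic gene Dlgap5 rose by 2.18 (SE 0.17), Fbxo34 fell by 3.76 (SE 0.16) and Mapk1ip1l differed by -0.38 (SE 0.13), or by 0.26 without probe sets marked as shared. The 4 genes around Lgals8 all had negative differences, as Lgals8 did: Heatr1, a gene of ribosome assembly, fell by 2.38 (SE 0.12, -1.75 when its probe sets were averaged), Actn2 fell by 2.88 (SE 0.20), Ero1b differed by -0.62 (SE 0.24) and Edaradd was not called (-0.29, SE 0.25, or 0.036 without probe sets marked as shared). Around Lgals9, Wsb1 fell by 1.88 (SE 0.20), Ksr1 differed by -0.41 (SE 0.16, or -1.14 without probe sets marked as shared), Lyrm9 was not called (0.32, SE 0.21) and Nos2 did not pass the filter. Calls of 3 neighbours were lost when a single array was left out. For Mapk1ip1l (-0.36 to -0.32) these were 8-cell replicates 2 and 3 and blastocyst replicates 1 and 4. For Ero1b (-0.60 to -0.45) they were 8-cell replicates 3 and 4 and blastocyst replicates 1, 2 and 4, and for Ksr1 (-0.45 to -0.31) 8-cell replicates 1, 3 and 4 and blastocyst replicates 1, 2 and 3.

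**Figure D4:**
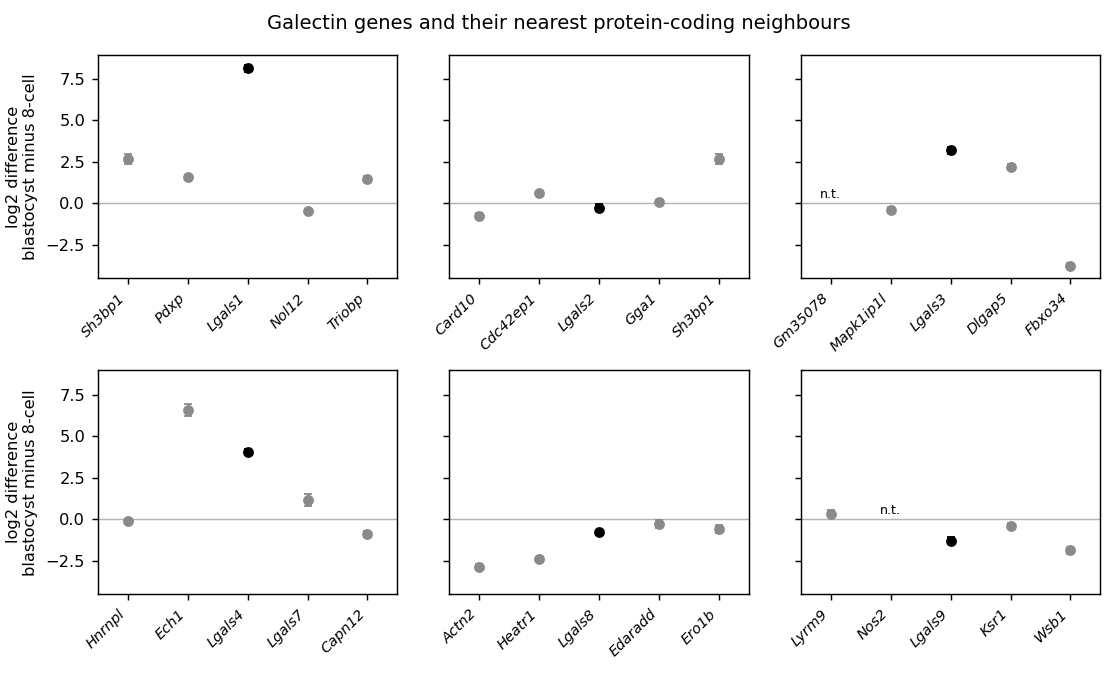
Difference in log2(signal + 16), blastocyst minus 8-cell, with its standard error (bars), of each galectin's brightest probe set (black) and of the 2 nearest protein-coding genes on each side in order along the chromosome (grey; n.t., not tested). Neighbours of Lgals1, Lgals3 and Lgals4 lie both above and below 0.

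The genes whose pattern over the 8 arrays was most like each galectin were found among 12026 tested genes by Pearson's r on the log2(signal + 16) scale. Because the stages differ so widely, many genes reach a high r: 3336 had r over 0.9 with Lgals1, and 3238 and 3269 with Lgals3 and Lgals4. The most alike were Atp12a, a proton pump subunit (r = 0.999), Napa and Mapre3 for Lgals1. They were Epb41l2 (r = 0.999), Gtf2b and Wbp1 for Lgals3, and Map2k5 (r = 0.998), Pag1 and Mtmr7 for Lgals4. For Lgals8 they were Chaf1b (r = 0.986), C87436 and Pes1, and for Lgals9 Bhmt (r = 0.990), Snx29 and Dhx9. Bhmt, a methyltransferase of methionine metabolism, was at 5568 in blastocysts and 24377 in 8-cell embryos. Atp12a and Mapre3 averaged only 6.25 and 17.7 in 8-cell embryos, where the lowest array's 40th percentile was 31.9. C87436 averaged 27.1 in blastocysts, where the lowest array's 40th percentile was 28.3. Only 6 genes had r over 0.9 with the brighter probe set of Lgals2, led by Zzef1 (r = 0.961), Plekha8 and Fzd3. All points share the 4 arrays of each stage, so these values describe likeness over the 8 arrays.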

How the data were processed

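Signal intensity on a linear scale was deposited by the authors for 45101 probe sets on 8 arrays, 4 of blastocysts and 4 of 8-cell embryos. Per the labels' protocols, RNA was isolated with the PicoPure kit, amplified with a small-sample labelling assay and labelled with biotin. The software that made the signals is not given in the sources used. Each deposited array had a mean of 500 after removal of the outer 2%. Values became log2(signal + 16). The array medians differed by 0.19 on that scale, under the limit of 0.5, so the deposited scale was kept. The 64 control probe sets stayed out of the tests. The platform annotation gave a single symbol to 34945 probe sets, several to 932 and none to 9160, which are unnamed here.

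The fit was blastocyst minus 8-cell in limma 3.58.1 (lmFit, eBayes; R 4.3.3), with Benjamini-Hochberg adjustment over all 28227 probe sets, or over 13274 genes by the brightest probe set of each, that exceeded their array's 40th percentile on at least 4 arrays. On simulated data of 28227 probe sets, 200 were changed in each run. Of changes of 0.5 log2 units 2.37% were recovered, of those of 1 unit 45.2% and of those of 2 units 87.5%, and 5.95% of calls were false. In the data 66.4% of probe sets were called, far more than were changed in the simulation, so these rates do not carry over to the data. The number of arrays limits the precision. Replicate numbers were shared between stages, but deviations of same-numbered arrays correlated at -0.035 to -0.024, so the main fit was not paired. These values do not show whether same-numbered arrays shared a collection or a processing day. The galectins and the gene lists were chosen with earlier results of these data known, so p-values printed for list genes are a description. The named genes were all galectin probe sets, the 3 called genes with the largest differences in each list (all genes of lists of up to 5), the 3 genes most alike each galectin and the brightest marker of each other cell type; the neighbouring genes and the other cell type markers were added after the values were seen. Promoters came from RefSeq (GRCm38.p6). The alternatives were another scaling (quantile, median), the filter dropped or set at the 60th percentile, an added 1 or 64, array weights, a robust fit with a trend on intensity, replicate number as a block, averaged probe sets, shared probe sets left out, each array left out in turn, and spike-in scaling, which was added after the data were seen. The protein comparison that had been planned was not made. Plots used matplotlib 3.10.9.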

Additional observations from a re-analysis of the deposited data

Results flagged for a closer look

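Among the 18 sets of 4 arrays examined (9 galectin probe sets at each stage), 1 had an array far from the others. The Lgals1 probe set 1419573_a_at read 14.4 on 8-cell replicate 3, against 57.1 to 69.2 on the other 8-cell arrays, and the gap to its nearest neighbour was 0.851 of the range of the 4 values on the log2(signal + 16) scale, above the critical value of Dixon's test. Chance marks about 1 in 20 such sets. The same array was also the lowest on the other Lgals1 probe set (46.4).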

How the results depend on the processing

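The 7 called galectin probe sets kept their direction under each of the 18 alternatives run on them, and their calls were lost in 1 case, Lgals8 1422662_at under spike-in scaling. Lgals1 lay between 7.50 and 8.82, Lgals3 between 3.04 and 3.46, Lgals4 between 3.56 and 4.29, Lgals8 between -0.88 and -0.53 and Lgals9 between -1.50 and -1.06. Leaving out 1 array gave 4 higher and 3 lower galectin probe sets each time. With the replicate block 9263 probe sets were called higher and 8921 lower, the galectin counts were again 4 and 3, and no galectin call changed. Spike-in scaling moved the median difference of all genes to 0.26, against 0.02 on the deposited scale. It called 10469 probe sets higher and 6505 lower, against 9483 and 9251, and 5403 genes higher and 3244 lower, against 4978 and 4539, and differences under it are relative to that shift. A filter at the 60th percentile left out Lgals2 and, of the other named genes, Lgals7, Lgals12, B4galt4, Bcl2, Lyrm9, Ksr1 and C87436.

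Some signs were reversed, and the cause was not tested. Lgals2 1417078_at gave -0.13 and -0.11 without 8-cell replicates 1 and 3, and up to 0.51 without replicate 2. Bcl2 gave 0.023 without blastocyst replicate 2, and lay as low as -0.61 with another array left out. When probe sets were averaged Gtf2i gave -0.59, Sufu 0.039, Gga1 -0.23, Hnrnpl 0.33, Zzef1 0.026 and Plekha8 0.50. Gga1 gave -0.16 with quantile normalization, Hnrnpl 0.15 and Plekha8 0.057 with spike-in scaling, and Mapk1ip1l 0.26 and Edaradd 0.036 without shared probe sets. Of these only Gtf2i, Sufu and Mapk1ip1l were called on the deposited scale. Signals near the 40th percentile, as for Lgals2 and for Lgals1 in 8-cell embryos, limit the precision of the differences that rest on them.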
